A study of Saccharomyces cerevisiae with 15 samples.

Results

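Arrays of a yeast PMI40 knockout grown with 1 g/L initial mannose were compared with arrays of the same strain at 0.75 g/L, the lowest mannose concentration of the study. The arrays were chosen by their titles, 3 at each of these concentrations, which makes 6 of the 15 arrays in the series. The strain was derived from the Saccharomyces cerevisiae laboratory strain CEN.PK113-7A, and every culture of the series carried the deletion. Cultures were aerated batches in mineral medium with 15 g/L glucose, and total RNA was taken 6 h after inoculation. The other 9 arrays held the same strain at 1.5, 3 and 5 g/L mannose, 3 each. The labels name 1 deletion strain and give mannose as the initial concentration, not what was left at sampling. Whether replicate arrays are separate cultures is unstated, and the array records give the arrays of a concentration a shared sample code. P-values therefore measure only the spread between arrays, which may be technical. Arrays of the parent strain were not analysed here.

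PMI40 encodes phosphomannose isomerase, which interconverts fructose 6-phosphate and mannose 6-phosphate. Without it, glucose cannot be turned into mannose 6-phosphate, and mannose taken up from the medium cannot enter glycolysis. Mannose 6-phosphate is converted by the phosphomannomutase Sec53 to mannose 1-phosphate and by the GDP-mannose pyrophosphorylase Psa1 to GDP-mannose, the donor for N-glycans, O-linked mannose, GPI anchors and the mannan of the cell wall. In growing yeast, a large share of transcription goes to ribosomes and to the factors that assemble them. When growth slows, that programme is known to fall while genes of stress defence and of the storage carbohydrates trehalose and glycogen rise.

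The values are signals of the YG_S98 array, scaled so that every array has nearly the same trimmed mean, so a signal is a share of an array's total. In such bulk RNA, fewer cells of a kind and less RNA per cell cannot be told apart. The 0.75 g/L arrays had median signals of 20.1 to 22.1 and the 1 g/L arrays 23.3 to 25.1, and 57.8 to 60.6% against 61.3 to 62.5% of probe sets exceeded the background of 13.5. The 3'/5' signal ratio, a measure of RNA integrity and labelling, was 4.19 to 5.26 at 0.75 g/L and 2.81 to 4.16 at 1 g/L for the SPT15 control sets. For the ACT1 control sets the ranges overlapped, at 1.86 to 2.36 and 1.48 to 2.06. The part of RNA integrity and labelling in the results was not tested. By station and time in the array records, the 0.75 g/L arrays and the 1 g/L arrays went through different fluidics runs. The fluidics records of all 3 arrays at 1 g/L hold a message of completion and those of all 3 at 0.75 g/L do not. The message was missing for 5 of the 15 arrays, the others being an array of the 3 g/L group and an array of the 5 g/L group. No run held both concentrations, so run, this message and mannose cannot be told apart. The 0.75 g/L run also held the 3 g/L array without the message, and over the 1536 probe sets that rose that array was lower than the other 3 g/L arrays by a median of 0.18 on the log2 scale (0.12 over all tested), where the rise itself had a median of 0.98. Over the 1061 that fell it was lower by a median of 0.10, against a median fall of 0.93. The difference of that array from the other 3 g/L arrays had medians of -0.39 and -0.40 over small-subunit processome and 60S assembly genes. Over cytosolic ribosomal protein genes its median was 0.34. The 1 g/L run held no array of another concentration, so it allowed no such comparison. With station and session as blocks together, a fit chosen after seeing the data, 45 probe sets were higher and 76 lower, the median over genes with 1 symbol went from 0.13 to -0.17, and the changes of single genes given below kept their call there only where this is said. Only the 3 and 5 g/L groups spanned runs, each with 1 array apart from the others, so both block effects rest on these arrays. The fit also takes station and session effects to add up in the 1 g/L run, which no array tests.

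More probe sets passed at the step from 0.75 to 1 g/L than at any of the later 3 steps of mannose. Of 6956 tested probe sets, 2597 passed at an adjusted p below 0.05 (limma, Benjamini-Hochberg), 1536 higher at 1 g/L (22.1%) and 1061 lower (15.3%). At least 2-fold changes numbered 744 higher and 476 lower, and at least 4-fold changes 177 and 110. The signals of the 3 arrays did not overlap those of the other 3 for 2507 of the 2597, against 3496 (50.3%) of all tested probe sets. The median change of all probe sets was 0.11 on the log2 scale, and scaling moved the split. Quantile normalization set that median to 0.00 and gave 1342 higher and 1261 lower, and scaling to equal medians set it to -0.09 and gave 1072 and 1564.

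**Figure D1:**
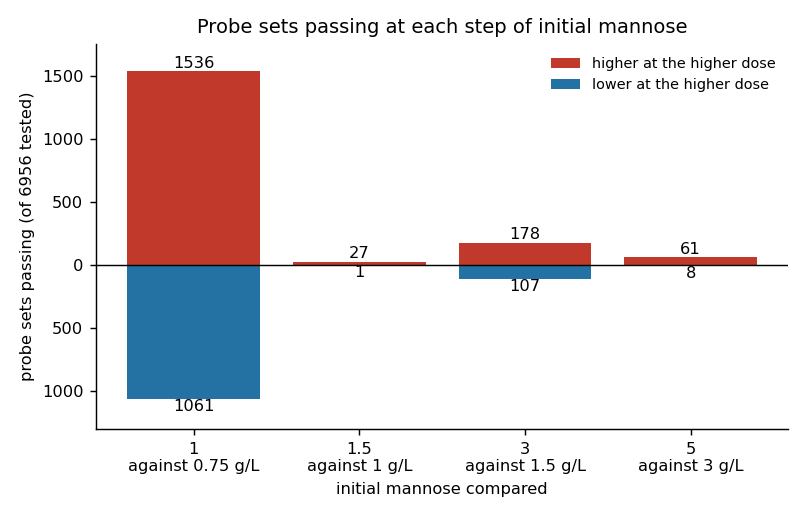
Numbers of probe sets passing an adjusted p of 0.05 at each step of initial mannose (x axis), with those higher at the higher dose drawn upward and those lower drawn downward (y axis, of 6956 tested). The first step has 1536 and 1061, and each later step has at most 178 and 107.

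The later steps were small beside the first. From 1 to 1.5 g/L 28 probe sets passed (0.403%), 27 higher and 1 lower. From 1.5 to 3 g/L 285 passed (4.1%), 178 higher and 107 lower, and from 3 to 5 g/L 69 passed (0.992%), 61 higher and 8 lower. The first of these shares the 1 g/L arrays with the comparison described here. Station and session both changed for all arrays from 0.75 to 1 g/L, and station alone from 1 to 1.5 g/L. Most arrays at 3 and 5 g/L shared a run. The sizes of the steps in mannose and in processing therefore cannot be told apart.

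**Figure D2:**
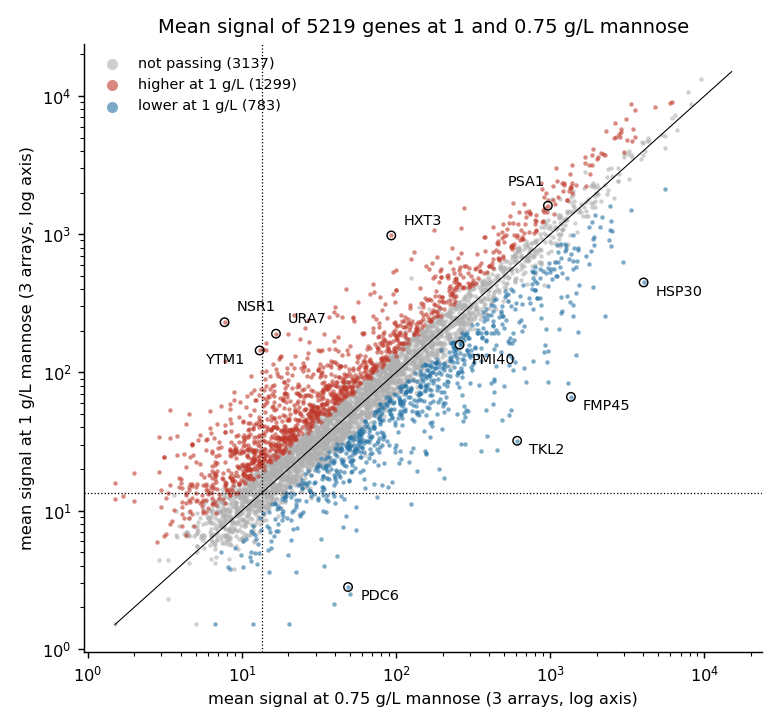
Mean signal of each of 5219 genes with 1 symbol at 0.75 g/L (x axis) and at 1 g/L (y axis), both on log axes, with the line of equal signal and, dotted, the background of 13.5. Genes above the line in red passed as higher at 1 g/L (1299) and those below it in blue as lower (783), and circles mark 10 named genes.

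The probe set annotated to PMI40 gave a signal in every array, although the strain carries its deletion, and its place relative to the deletion is unstated in the sources. It therefore does not check the labels. Its signals were 270.0, 270.0 and 233 at 0.75 g/L against 163, 113 and 200.3 at 1 g/L, without overlap, and it fell by 0.74 ± 0.19 (log2 change ± SE, adjusted p = 0.00714). The genes that carry mannose 6-phosphate on to GDP-mannose moved the other way. SEC53 had signals of 647, 606 and 584 at 0.75 g/L against 1216, 1062 and 1284 at 1 g/L, a rise of 0.95 ± 0.13 (adjusted p = 7.56e-05). PSA1 had 936, 1118 and 838 and then 1807, 1400.5 and 1613, a rise of 0.74 ± 0.15 (adjusted p = 0.00141). For both genes the arrays of the higher dose lay above all arrays of the lower one. GUK1, the guanylate kinase that makes GDP from GMP, rose by 1.14 ± 0.19 (adjusted p = 0.000303), and GDA1, the Golgi GDPase that yields GMP from GDP, by 1.12 ± 0.17 (adjusted p = 0.000153). Of the 8 genes listed for GDP-mannose supply, 5 were higher, 1 (PMI40) was lower and 2 did not pass. Of all 5219 genes with 1 symbol, 1299 were higher (24.9%) and 783 lower (15.0%), with a median change of 0.13, and the list's median was 0.80. With station and session as blocks the list's median was 0.34 and 0 of the 8 passed by limma.

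Smaller shares of the genes that use GDP-mannose passed. Of 20 genes listed for protein O-mannosylation, 2 were higher and 1 lower. PMT4, a protein O-mannosyltransferase of the ER, rose by 0.61 ± 0.18 (adjusted p = 0.015), KTR6, a Golgi mannosylphosphate transferase, by 0.82 ± 0.25 (adjusted p = 0.0186), and YUR1, a Golgi mannosyltransferase, fell by 0.69 ± 0.19 (adjusted p = 0.0104). Of 27 genes for the lipid-linked oligosaccharide and N-glycosylation, 3 were higher and 1 lower. The risers were ALG14, which takes part in adding the second sugar of the oligosaccharide, and the oligosaccharyltransferase subunits OST3 and OST4, at 0.53 ± 0.17, 0.54 ± 0.19 and 0.55 ± 0.14, and the glucosyltransferase ALG6 fell by 0.69 ± 0.17 (adjusted p = 0.00611). Of 23 genes for GPI anchors, 2 were higher and 0 lower by limma (2 at an unadjusted p below 0.05), BST1, which deacylates the inositol of the anchor, at 0.58 ± 0.17 (adjusted p = 0.0162), and SPT14, the catalytic subunit that starts the anchor, at least 1.8-fold higher (adjusted p = 0.0114). The anchor genes GPI1 and GPI12 stood at 0.45 ± 0.17 and -0.40 ± 0.17 and did not pass (adjusted p = 0.0597 and 0.0766). Of 14 genes for Golgi mannan 3 were higher and 2 lower. MNN9 and MNN10, subunits of the mannan polymerases, rose by 1.15 ± 0.20 and 1.27 ± 0.21 (adjusted p = 0.000385 and 0.000252), and MNN4, a regulator of mannosylphosphate transfer, fell by 0.78 ± 0.16 (adjusted p = 0.00193). With station and session as blocks the changes of KTR6 and OST3 turned to -0.93 and -0.74. Several of these calls were lost when a single array was left out or the scaling changed. Under median scaling ALG14 (adjusted p = 0.148), OST3 (0.167), OST4 (0.0936), BST1 (0.1) and PMT4 (0.0863) did not pass. ALG14 also did not pass under quantile normalization (0.0689). ALG14 lost its call without 0.75 g/L replicate 1 or 2 or 1 g/L replicate 1 or 3 (adjusted p up to 0.108) and OST3 without any single array but 1 g/L replicate 2 (up to 0.106). BST1 and KTR6 lost theirs without 0.75 g/L replicate 3 (0.0783 and 0.0564), PMT4 without 0.75 g/L replicate 2 (0.076) or 1 g/L replicate 1 (0.0554) and YUR1 without 1 g/L replicate 1 (0.0523). GPI1 passed without 0.75 g/L replicate 3 (0.0443) or 1 g/L replicate 2 (0.025), and GPI12 without 0.75 g/L replicate 3 (0.0257). GPI12 also passed as lower under quantile normalization (-0.43, adjusted p = 0.0338) and median scaling (-0.60, adjusted p = 0.0124). The shares of these lists that passed as higher lay below the 24.9% of all genes. Their medians were 0.03, 0.19, 0.21 and 0.26, and the first turned to -0.07 under quantile normalization and the second to -0.02 under median scaling. With the 2 blocks the 4 medians were -0.71, -0.44, -0.48 and -0.40.

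The largest rises were in genes of ribosome assembly and nucleotide supply, with a glucose transporter among them. NSR1, the yeast nucleolin that acts in pre-rRNA processing, had signals of 8.9, 6.7 and 7.6 at 0.75 g/L, all below background, and 255, 207 and 230.3 at 1 g/L. It was at least 17.0-fold higher (adjusted p = 5.87e-10) and kept its call with station and session as blocks. HXT3, a low-affinity hexose transporter induced by glucose, had 110.1, 104 and 65.0 and then 1045, 822 and 1069, a rise of 3.43 ± 0.22 (adjusted p = 6.25e-08). The arrays of the groups were several-fold apart for both genes. URA7, the main CTP synthase, had 19.8, 14.4 and 15.6 and then 196, 178 and 197, a rise of 3.53 ± 0.16 (adjusted p = 7.26e-09). YTM1, a 60S assembly factor, had 13.9, 12.5 and 12.5 and then 133, 144 and 155, a rise of 3.47 ± 0.14 (adjusted p = 4.2e-09). Both kept their call with the 2 blocks, as did NOP13, a nucleolar RNA-binding protein, which rose by 3.49 ± 0.18 (adjusted p = 1.87e-08). RRP12, which takes part in the export of both subunits, rose by 3.47 ± 0.21 and DBP2, an RNA helicase, by 3.58 ± 0.20 (adjusted p = 4.63e-08 and 2.51e-08). Of the other genes among the 12 largest, 5 lay at or below background on every 0.75 g/L array. They were BMT5, a methyltransferase of 25S rRNA, at least 8.87-fold higher, ARX1, a 60S export factor, at least 3.94-fold, OGG1, a DNA glycosylase that removes oxidised guanine, at least 3.67-fold, DRS1, an RNA helicase of 60S assembly, at least 2.51-fold, and AAH1, adenine deaminase, at least 2.47-fold. Their adjusted p lay between 9.77e-08 and 3.82e-06.

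Nearly the whole machinery for building ribosomes was higher at 1 g/L. Of 63 genes of the small-subunit processome, the particle that folds and cleaves the precursor of 18S rRNA, 60 were higher and 0 lower by limma, also at an unadjusted p below 0.05, with a median of 2.11. Of 65 genes of 60S assembly 64 were higher and 0 lower, again also unadjusted, with a median of 2.18. On the 0.75 g/L arrays 27 and 28 of these genes lay at or below background throughout, and with values floored at background the medians were 1.60 and 1.67. With station and session as blocks the medians were 1.47 and 1.63, and 1 and 2 members passed. Among processome members UTP15 rose by 2.33 ± 0.14 (adjusted p = 3.32e-08), PNO1 by 2.48 ± 0.16 (adjusted p = 7.52e-08) and the RNA helicase DBP8 by 2.85 ± 0.17 (adjusted p = 3.92e-08), which kept its call with the 2 blocks. DBP8 had signals of 14.0, 14.0 and 14.9 at 0.75 g/L against 113, 98.3 and 98.1 at 1 g/L. RLP24, a 60S factor that resembles a ribosomal protein, had 19.8, 20.9 and 18.5 and then 94.3, 111 and 116, a rise of 2.44 ± 0.14 (adjusted p = 2.64e-08). The arrays of the 2 concentrations did not overlap for either gene.

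The polymerases that make ribosomal RNA, 5S rRNA and tRNA moved the same way. Of 14 genes of RNA polymerase I and its factors 11 were higher and 0 lower by limma, with a median of 1.60, which was 0.94 with values floored at background. The largest subunit RPA190 had signals of 33.4, 41.2 and 44.7 at 0.75 g/L against 309, 293 and 288 at 1 g/L, a rise of 2.91 ± 0.23 (adjusted p = 3.82e-07). The second largest subunit RPA135 rose by 2.78 ± 0.16, RPA49 by 2.28 ± 0.19 and RPA43 by 3.07 ± 0.22 (adjusted p = 2.51e-08, 6.67e-07 and 1.24e-07). Of 21 genes of RNA polymerase III 12 were higher and 0 lower, with a median of 0.89 that was 0.45 with the 2 blocks. Its subunit RET1 rose by 1.90 ± 0.16, and RPC19 and RPC40, which polymerases I and III share, rose by 1.84 ± 0.16 and 1.74 ± 0.19 (adjusted p = 8.32e-07, 8.33e-07 and 6.19e-06). RPC37 was at least 3.1-fold higher (adjusted p = 8.65e-06). Of 44 genes for RNA modification and the exosome, the complex that trims RNA from its 3' end, 40 were higher and 0 lower, with a median of 1.25 that was 0.61 with the 2 blocks. GAR1 and NHP2, proteins of the particles that make pseudouridine in rRNA, rose by 2.39 ± 0.17 and 2.07 ± 0.15, the pseudouridine synthase PUS7 by 1.83 ± 0.14 and the La protein LHP1, which binds newly made tRNA, by 2.25 ± 0.18 (adjusted p = 1.56e-07, 1.55e-07, 2.88e-07 and 4.53e-07). In these 3 lists 0 members were lower at an unadjusted p below 0.05.

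**Figure D3:**
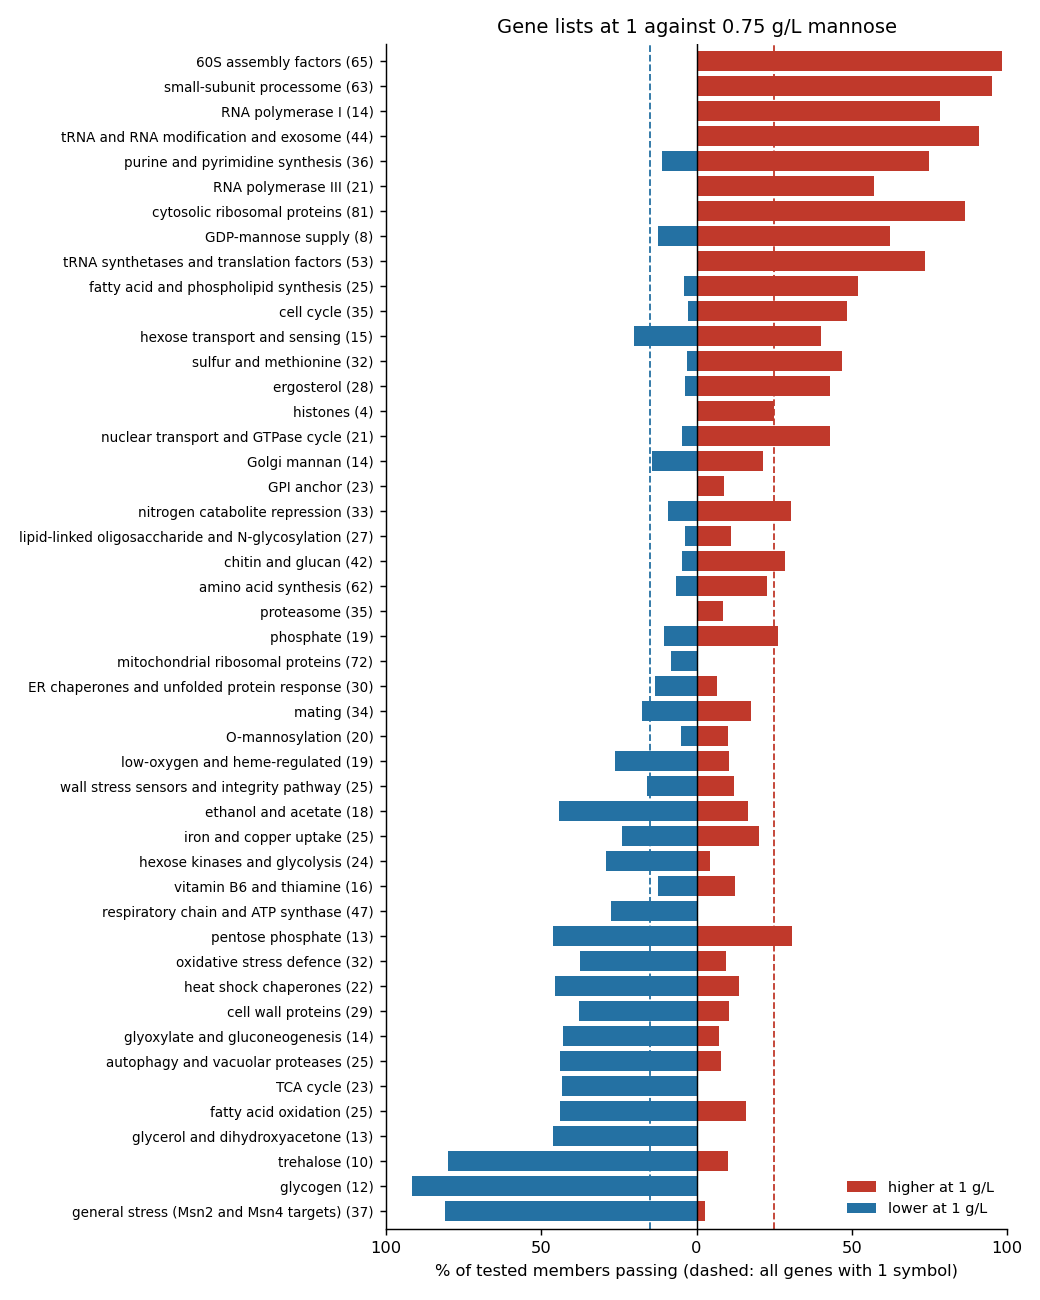
Share of the tested members of each of 47 gene lists that passed as higher (red, rightward) or lower (blue, leftward) at 1 against 0.75 g/L (x axis, %), with the number tested in brackets and lists ordered by median change. Dashed lines mark 24.9% and 15.0%, the shares of all genes, and lists of ribosome assembly lie at the top and those of general stress, glycogen and trehalose at the bottom.

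Genes for the proteins of the ribosome itself were also higher. Of 138 cytosolic ribosomal protein genes, 81 had a tested probe set with 1 symbol, and of these 70 were higher and 0 lower by limma, also at an unadjusted p below 0.05, with a median of 0.87. With the 2 blocks the median was 1.52, and 2 members passed as higher. Many of these genes are paired with near-identical copies whose probe sets can share RNA, so single members are uncertain. RPL7B, of the large subunit, had signals of 122, 149.8 and 120.5 and then 623, 852 and 769, a rise of 2.51 ± 0.23 (adjusted p = 1.45e-06). RPS26B rose by 1.92 ± 0.19, RPS9A by 1.51 ± 0.14 and RPL33B by 1.42 ± 0.13 (adjusted p = 2.52e-06, 2.2e-06 and 1.82e-06). Of 53 tRNA synthetases and translation factors 39 were higher and 0 lower, also unadjusted, with a median of 0.77 that was 0.25 with the 2 blocks, where 0 passed by limma. Members included the methionyl- and tryptophanyl-tRNA synthetases MES1 and WRS1 at 1.32 ± 0.13 and 1.33 ± 0.13, the ribosome recycling factor RLI1 at 1.80 ± 0.18, and GCD10, a subunit of a tRNA methyltransferase, at 2.32 ± 0.19 (adjusted p = 3.29e-06, 3.24e-06, 3.64e-06 and 4.27e-07). The 72 mitochondrial ribosomal protein genes did not follow, with 0 higher (2 at an unadjusted p below 0.05) and 6 lower and a median of 0.06, which was -0.15 under median scaling and -0.48 with the 2 blocks. Those lower included MRPL51 at -1.06 ± 0.25, MRPS9 at -1.18 ± 0.38 and MRPS12 at -0.40 ± 0.14 (adjusted p = 0.00459, 0.0265 and 0.0441). MRPS9 lost its call without 0.75 g/L replicate 1 or 2 or 1 g/L replicate 1 or 3 (adjusted p up to 0.108), and MRPS12 without any single array but 1 g/L replicate 1 (up to 0.174). Of 21 genes of nuclear transport 9 were higher and 1 lower, with a median of 0.29 that was -0.12 with the 2 blocks. The importin KAP123, which carries ribosomal proteins, rose by 1.80 ± 0.18, the importins PSE1 by 0.96 ± 0.15 and KAP122 by 1.18 ± 0.17, and GSP2, the less abundant paralog of the GTPase Ran, fell by 1.86 ± 0.17 (adjusted p = 3.43e-06, 0.000186, 0.000116 and 1.61e-06).

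Genes of nucleotide synthesis were mostly higher. Of 36 purine and pyrimidine genes 27 were higher and 4 lower, with a median of 1.15 that was 0.69 with the 2 blocks. GUA1, GMP synthase, had signals of 207, 162 and 157 at 0.75 g/L against 1020.4, 976 and 1199 at 1 g/L, a rise of 2.61 ± 0.16 (adjusted p = 4.32e-08). SHM2, the cytosolic serine hydroxymethyltransferase that supplies one-carbon units, had 112, 90.3 and 97.0 and then 516, 561 and 576, a rise of 2.47 ± 0.13 (adjusted p = 1.87e-08). For both genes the arrays lay far apart, and both kept their call with the 2 blocks. ADE17, of the last steps to IMP, rose by 1.89 ± 0.15 (adjusted p = 3.47e-07). Of 32 genes of sulfur assimilation and methionine 15 were higher and 1 lower, with a median of 0.47 that was 0.16 with the 2 blocks. The methionine permease MUP1 rose by 2.16 ± 0.26, the S-adenosylmethionine synthetase SAM1 by 1.70 ± 0.16, the methionine synthase MET6 by 1.19 ± 0.20, and the sulfate permease SUL1, at background at 0.75 g/L, was at least 2.62-fold higher (adjusted p = 2.02e-05, 1.69e-06, 0.000342 and 1.46e-05). Amino acid synthesis stood near the background of all genes, with 14 of 62 higher and 4 lower and a median of 0.16 that was -0.04 under median scaling and -0.05 with the 2 blocks. SER2, of serine synthesis, rose by 1.79 ± 0.23 while SER3, an earlier enzyme of the same route, fell by 1.69 ± 0.22, and LEU9 and LYS12, of leucine and lysine synthesis, rose by 1.17 ± 0.18 and 0.89 ± 0.14 (adjusted p = 3.63e-05, 4.09e-05, 0.000152 and 0.000167). Of 33 genes under nitrogen catabolite repression 10 were higher (30.3%) and 3 lower (9.1%), not far from the 24.9% and 15.0% of all genes. Their median of 0.19 was 0.03 under quantile normalization, -0.02 under median scaling and -0.21 with the 2 blocks. The ammonium permeases MEP2 and MEP3 and the tryptophan permease TAT2 rose by 0.97 ± 0.22, 1.08 ± 0.16 and 0.89 ± 0.15, and the branched-chain amino acid permease BAP2 fell by 0.93 ± 0.20 (adjusted p = 0.00285, 0.000144, 0.000308 and 0.00235). With station and session as blocks the change of MEP2 was -0.20.

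The largest falls included genes known for stress and slow growth and minor isoenzymes of carbon metabolism. FMP45, a membrane protein of the SUR7 family, had signals of 1464, 1304 and 1312 at 0.75 g/L against 70.6, 79.4 and 49.6 at 1 g/L, and fell by 4.38 ± 0.25 (adjusted p = 2.51e-08). Its relative YNL194C had 483, 423 and 440.2 and then 28.0, 30.6 and 23.7, and fell by 4.04 ± 0.18 (adjusted p = 7.26e-09). Both were many-fold higher on every 0.75 g/L array. TKL2, the minor transketolase of the pentose phosphate pathway, had 695, 778 and 354 and then 34.1, 33.4 and 28.5, and fell by 4.18 ± 0.29 (adjusted p = 1.13e-07). ALD3, a cytosolic aldehyde dehydrogenase induced by stress, had 1359, 1035 and 1524 and then 84.8, 103 and 62.8, and fell by 3.98 ± 0.21 (adjusted p = 1.92e-08). One of the 0.75 g/L arrays stood lower than the others for TKL2, yet stayed above every 1 g/L array. Also lower were CTT1, the cytosolic catalase, at -3.53 ± 0.28, HBT1, a protein of the mating projection, at -3.72 ± 0.22, FMP16, whose product was found in mitochondria, at -3.50 ± 0.22 and the reticulon RTN2 at -3.57 ± 0.24 (adjusted p = 3.82e-07, 3.8e-08, 5.92e-08 and 9.77e-08). Of these, FMP45, YNL194C, TKL2, ALD3, CTT1, HBT1 and FMP16 kept their call with station and session as blocks. Of the other genes among the 12 largest falls, 4 lay at or below background on every 1 g/L array. HAB1 was at least 3.58-fold lower, PDC6, the minor pyruvate decarboxylase, at least 3.6-fold, SDD1 at least 2.92-fold and BAG7, a GTPase-activating protein for Rho1, at least 1.47-fold (adjusted p = 1.78e-06, 2.14e-06, 1.56e-07 and 1.2e-06).

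Genes of the general stress response were lower at 1 g/L in most cases. Of 37 tested targets of the stress factors Msn2 and Msn4, 30 were lower and 1 higher, with a median of -2.06, and of -2.24 with station and session as blocks, where 10 were lower. SPI1, a wall protein gene of this list, had signals of 2098, 2413 and 2262 at 0.75 g/L against 205, 246 and 319 at 1 g/L, and fell by 3.16 ± 0.18 (adjusted p = 2.64e-08). GAD1, glutamate decarboxylase, had 695, 657 and 741 and then 99.4, 75.6 and 81.4, and fell by 3.04 ± 0.17 (adjusted p = 2.38e-08). PAI3, an inhibitor of the vacuolar protease Pep4, fell by 2.43 ± 0.13 (adjusted p = 1.92e-08). For each of these the groups were apart, and GAD1 and PAI3 kept their call with the 2 blocks. Heat shock chaperones were mixed, with 10 of 22 lower and 3 higher and a median of -0.29 that was -0.56 with the 2 blocks. HSP30, a stress protein of the plasma membrane, had 3928, 4086 and 4071 and then 496, 429 and 418, and fell by 3.17 ± 0.15 (adjusted p = 9.33e-09). SSE2, an Hsp70 exchange factor, fell by 2.18 ± 0.16 and STI1, an Hsp90 cochaperone, by 1.03 ± 0.19, while SSZ1, an Hsp70 bound to the ribosome, rose by 1.01 ± 0.15 (adjusted p = 1.56e-07, 0.000774 and 0.000102). Of 32 genes of oxidative stress defence 12 were lower and 3 higher. The peroxiredoxin TSA2 had 462, 549.8 and 444 and then 42.5, 43.6 and 49.9, and fell by 3.42 ± 0.21 (adjusted p = 3.8e-08). The NADPH dehydrogenase OYE3 fell by 2.61 ± 0.20, the glutaredoxin GRX1 by 2.04 ± 0.22 and the mitochondrial cytochrome b5 reductase MCR1 by 1.44 ± 0.18 (adjusted p = 2.54e-07, 5.83e-06 and 2.79e-05). HSP30, SSE2 and TSA2 kept their call with the 2 blocks.

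**Figure D4:**
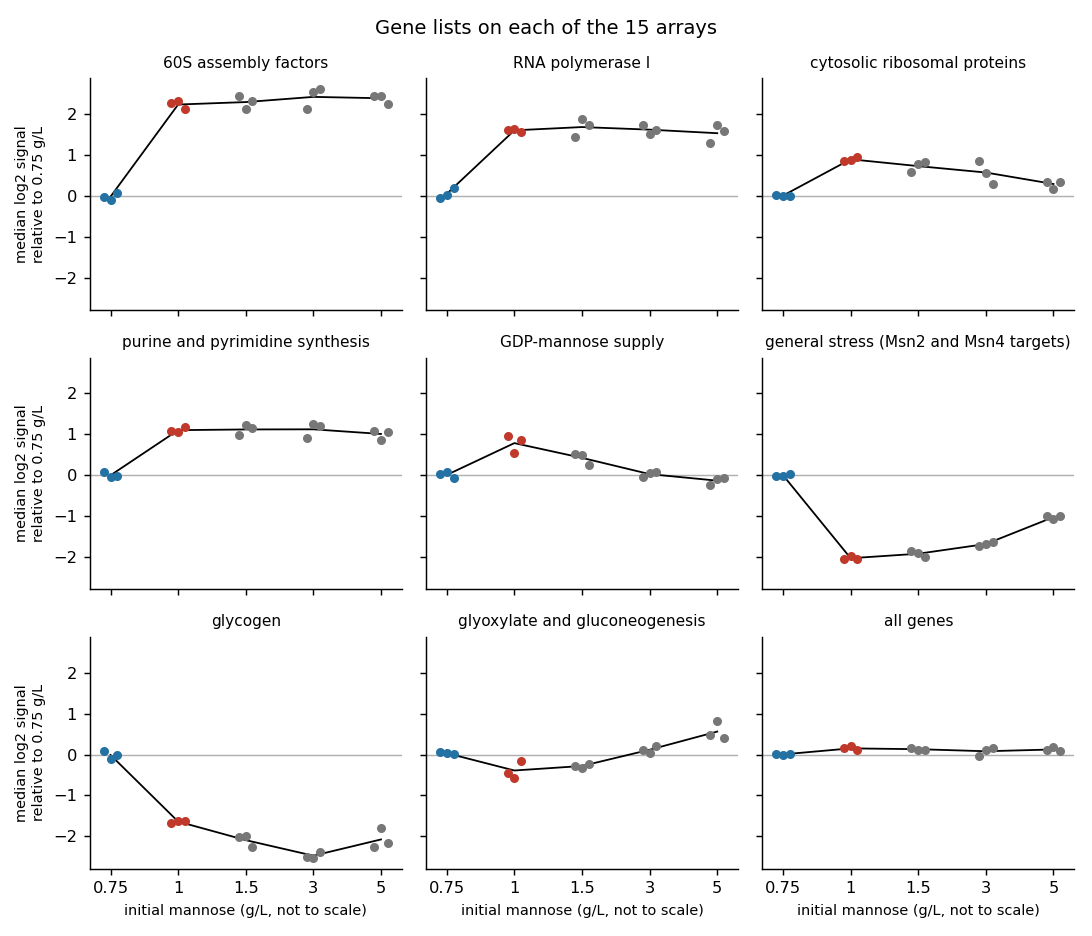
Median log2 signal of the members of 8 gene lists, and of all genes with 1 symbol, on each array (y axis, relative to the mean at 0.75 g/L) against initial mannose (x axis, not to scale). Points are arrays (blue 0.75 g/L, red 1 g/L, grey the others) and lines join the group means, and the 60S assembly list stays high from 1 g/L onward while the stress and GDP-mannose lists return towards their 0.75 g/L level at 5 g/L.

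Genes of storage carbohydrates were lower with few exceptions. Of 12 glycogen genes 11 were lower and 0 higher by limma, also at an unadjusted p below 0.05, with a median of -1.53. GPH1, glycogen phosphorylase, had signals of 595, 553 and 530.3 at 0.75 g/L against 43.2, 70.8 and 46.8 at 1 g/L, and fell by 3.42 ± 0.23 (adjusted p = 1.1e-07). GSY2, glycogen synthase, had 1235, 1054 and 1254 and then 260.3, 298 and 254, and fell by 2.12 ± 0.18 (adjusted p = 8.59e-07). Genes of synthesis and of breakdown were thus lower side by side. The debranching enzyme GDB1 fell by 2.68 ± 0.24 and PIG2, a regulatory subunit of the glycogen phosphatase, by 1.87 ± 0.15 (adjusted p = 9.75e-07 and 4.53e-07). Of 10 trehalose genes 8 were lower and 1 higher, with a median of -1.24. TPS1 and TPS2, synthase and phosphatase of trehalose synthesis, fell by 1.32 ± 0.15 and 2.21 ± 0.28, the regulatory subunit TSL1 by 1.41 ± 0.14 and UGP1, which makes UDP-glucose, by 1.21 ± 0.14 (adjusted p = 1.16e-05, 2.66e-05, 3.4e-06 and 1.51e-05). GPH1, GSY2, GDB1 and TSL1 kept their call with the 2 blocks.

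In sugar uptake and glycolysis, members moved in both directions. Of 15 tested genes of hexose transport and sensing 6 were higher and 3 lower. MIG2, a glucose repressor, rose by 1.82 ± 0.22 (adjusted p = 1.72e-05). The high-affinity transporters HXT6 and HXT7, whose sequences are nearly identical so that their probe sets may share RNA, fell by 1.01 ± 0.20 and 1.05 ± 0.17 (adjusted p = 0.00108 and 0.000214). HXT5, a transporter of slowly growing cells, had 40.5, 41.1 and 36.7 and then 13.3, 11.7 and 13.0, the latter at background, and was at least 2.92-fold lower (adjusted p = 3.16e-06). Of 24 genes of hexose kinases and glycolysis 7 were lower and 1 higher, with a median of -0.12 that was -0.02 with the 2 blocks. Among those lower were the glucokinase GLK1 at -1.19 ± 0.19, its paralog EMI2 at -1.80 ± 0.19, the minor phosphoglycerate mutase GPM2 at -2.49 ± 0.22 and the minor pyruvate kinase PYK2 at -1.66 ± 0.26 (adjusted p = 0.000244, 5.04e-06, 1.15e-06 and 0.000183). Of 18 genes of ethanol and acetate metabolism 8 were lower and 3 higher, with ADH5, an alcohol dehydrogenase, at -2.87 ± 0.30 and ACH1, an acetyl-CoA hydrolase, at -1.77 ± 0.16 (adjusted p = 5.3e-06 and 1.14e-06). Of 13 pentose phosphate genes 6 were lower and 4 higher. NQM1, a paralog of transaldolase, had 122, 148 and 102 and then 9.9, 14.1 and 9.6 and fell by 3.48 ± 0.20, while GND1, the main 6-phosphogluconate dehydrogenase, had 1089, 1037 and 989 and then 1821, 1637 and 1882 and rose by 0.78 ± 0.14 (adjusted p = 3.65e-08 and 0.000473). The phosphogluconolactonase gene SOL4 and its relative SOL1 fell by 2.22 ± 0.14 and 1.46 ± 0.18 (adjusted p = 6.16e-08 and 2.08e-05). Of 13 glycerol and dihydroxyacetone genes 6 were lower and 0 higher by limma (1 at an unadjusted p below 0.05), with a median of -0.83. The glycerol 3-phosphate dehydrogenase GPD1 fell by 1.00 ± 0.15, the phosphatase GPP2 by 1.54 ± 0.20, the reductase GCY1 by 2.51 ± 0.23 and the dihydroxyacetone kinase DAK1 by 1.17 ± 0.15 (adjusted p = 0.000167, 3.53e-05, 1.73e-06 and 2.93e-05). HXT5, EMI2, GPM2, NQM1, SOL4 and GPP2 kept their call with the 2 blocks.

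Genes of the TCA cycle and the respiratory chain were lower or did not pass, and the lists of fatty acid oxidation, the glyoxylate cycle and autophagy also held members that rose. Of 23 genes of the TCA cycle 10 were lower and 0 higher by limma, also at an unadjusted p below 0.05, with a median of -0.51. The malate dehydrogenase MDH1 fell by 0.72 ± 0.15, the fumarase FUM1 by 0.83 ± 0.18 and the succinate dehydrogenase subunit SDH2 by 0.69 ± 0.14 (adjusted p = 0.00213, 0.00249 and 0.0018), and CIT3, which passed too (adjusted p = 1.13e-07), lay at or below background in both groups. Of 47 genes of the respiratory chain and ATP synthase 13 were lower and 0 higher (1 unadjusted), with a median of -0.17 that was -0.30 with the 2 blocks. CYC7, the cytochrome c isoform of low oxygen, had signals of 398, 426 and 318 at 0.75 g/L against 56.9, 53.1 and 50.8 at 1 g/L, and fell by 2.82 ± 0.18 (adjusted p = 6.25e-08). The external NADH dehydrogenase NDE2 fell by 2.68 ± 0.31 and STF1, a regulator of ATP synthase, by 0.92 ± 0.17 (adjusted p = 1.11e-05 and 0.000798). CYC7 and NDE2 kept their call with the 2 blocks. COX26, a protein of the respiratory supercomplex, had 122, 154 and 108 and then 33.4, 18.9 and 32.6 and fell by 2.21 ± 0.29 (adjusted p = 3.5e-05), but its change was -0.02 with the 2 blocks. On the 3 g/L arrays, among those on which the block effects rest, COX26 had 10.9, 5.2 and 6.1, all below background. Of 25 genes of fatty acid oxidation 11 were lower and 4 higher, with a median of -0.63. The carnitine acetyltransferases CAT2 and YAT2 fell by 2.18 ± 0.16 and 1.43 ± 0.19, the acyl-CoA synthetase FAA1 by 1.48 ± 0.17 and the dienoyl-CoA reductase SPS19 by 1.16 ± 0.14 (adjusted p = 2.21e-07, 5.2e-05, 9.98e-06 and 2.38e-05). Of 14 genes of the glyoxylate cycle and gluconeogenesis 6 were lower and 1 higher, and 7 lay at background on every 1 g/L array. Their median of -0.31 was 0.00 with values floored at background and -0.71 with the 2 blocks. MDH2, the cytosolic malate dehydrogenase, fell by 0.72 ± 0.18 and ICL2 by 0.82 ± 0.24, and the malate synthase MLS1 was at least 1.14-fold lower (adjusted p = 0.00654, 0.0156 and 4.04e-05). ICL2 lost its call without 1 g/L replicate 2 (0.0617) or 3 (0.052). Of 25 genes of autophagy and vacuolar proteases 11 were lower and 2 higher, with a median of -0.50. The vacuolar aminopeptidase APE1 fell by 1.45 ± 0.18, carboxypeptidase Y (PRC1) by 1.29 ± 0.17 and the protease inhibitor PBI2 by 0.92 ± 0.14, while ATG5, of the conjugation system of autophagy, rose by 1.06 ± 0.14 (adjusted p = 2.64e-05, 4.31e-05, 0.000151 and 4.66e-05).

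Both lists of cell wall genes held members that rose and members that fell, and the lists were not tested against each other. Of 29 wall proteins 11 were lower (37.9%) and 3 higher, with a median of -0.31 that was -0.16 with the 2 blocks. FLO11, the flocculin of adhesion, had signals of 906, 1001 and 816 at 0.75 g/L against 168, 156 and 97.5 at 1 g/L, and fell by 2.73 ± 0.22 (adjusted p = 5.57e-07), a call kept with the 2 blocks. PIR3, a wall protein with internal repeats, fell by 2.27 ± 0.18 and the GPI-anchored aspartyl protease YPS1 by 1.44 ± 0.16 (adjusted p = 3.82e-07 and 8.49e-06). Of 42 genes for chitin and glucan 12 were higher (28.6%, near the 24.9% of all genes) and 2 lower, with a median of 0.16 that was -0.05 under median scaling and -0.23 with the 2 blocks. UTR2, which links chitin to glucan, had 51.7, 45.5 and 59.5 and then 248, 246 and 254, and rose by 2.26 ± 0.15 (adjusted p = 6.25e-08). SCW10, a wall protein related to glucanases, rose by 1.86 ± 0.13, GAS1, a glucan-elongating enzyme, by 0.78 ± 0.13, and SKN1, of beta-1,6-glucan synthesis, fell by 1.59 ± 0.28 (adjusted p = 1.42e-07, 0.000343 and 0.000533). The integrity pathway, with 3 of 25 higher and 4 lower, included falls of SDP1, a phosphatase of the pathway's MAP kinase, by 1.66 ± 0.19 and of ROM1, an exchange factor for Rho1, by 1.54 ± 0.17, and a rise of SAC7, which acts on Rho1 in the opposite sense, by 1.16 ± 0.18 (adjusted p = 1.04e-05, 8.71e-06 and 0.000219). Among 30 genes of ER chaperones and the unfolded protein response 2 were higher (6.7%) and 4 lower (13.3%, also near the 15.0% of all genes). The chaperone SCJ1 and MNL1, of glycoprotein degradation, rose by 1.25 ± 0.19 and 0.76 ± 0.19, and the oxidative folding genes ERO1 and MPD1 fell by 1.21 ± 0.33 and 1.30 ± 0.19 (adjusted p = 0.000171, 0.00714, 0.00984 and 9.4e-05), of which ERO1 had an adjusted p of 0.0711 in a fit of the 6 arrays alone. The medians of these last lists were -0.02 and 0.04, and -0.19 and -0.35 with the 2 blocks, and the second was -0.03 under quantile normalization.

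Genes of division and membrane growth were higher in part. Of 35 cell cycle genes 17 were higher and 1 lower, with a median of 0.55 that was 0.08 with the 2 blocks, where 0 passed by limma. RNR1, the large subunit of ribonucleotide reductase, had signals of 119, 95.1 and 86.6 at 0.75 g/L against 414, 364 and 407 at 1 g/L, and rose by 1.99 ± 0.20 (adjusted p = 4.12e-06). The G1 cyclin PCL1 rose by 1.82 ± 0.18 and FAR1, an inhibitor of G1 kinases, by 1.63 ± 0.17 (adjusted p = 2.96e-06 and 4.12e-06). HO, the mating-type switching endonuclease, had 78.6, 81.9 and 74.7 and then 376, 372 and 313 and rose by 2.17 ± 0.22 (adjusted p = 3.42e-06), a value that was 0.41 with the 2 blocks. Of the 10 histone genes listed, 4 were tested, and of these HTB2, for H2B, rose by 0.76 ± 0.18 (adjusted p = 0.00511). Of 25 genes of fatty acid and phospholipid synthesis 13 were higher and 1 lower, with a median of 0.62 that was -0.19 with the 2 blocks. INO2, an activator of phospholipid genes, was at least 1.25-fold higher, OPI1, a repressor of the same genes, rose by 1.14 ± 0.19 and GPT2, an acyltransferase, fell by 1.35 ± 0.15 (adjusted p = 3.84e-05, 0.000293 and 1.12e-05). Of 28 ergosterol genes 12 were higher and 1 lower, with a median of 0.41 that was 0.12 with the 2 blocks. ERG3, the C-5 sterol desaturase, had 252, 203 and 231 and then 785, 784 and 834 and rose by 1.81 ± 0.14, and ERG25, the C-4 methyl oxidase, and MVD1, of the mevalonate route, by 1.28 ± 0.17 and 0.99 ± 0.15 (adjusted p = 2.71e-07, 3.67e-05 and 0.000148). The groups did not overlap for ERG3 or RNR1.

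At higher mannose, many of the genes that moved at the first step moved back. The comparison of 5 with 1.5 g/L shares no array with that of 1 with 0.75 g/L, and 912 probe sets passed in it (13.1%), 572 higher and 340 lower. Of these, 439 had passed in the opposite direction at the first step, 48.1% of the 912 and 16.9% of the 2597. The 290 that were lower at 1 than at 0.75 g/L and higher at 5 than at 1.5 g/L made up 27.3% of all that fell and 50.7% of those later higher, and the 149 with the reverse pattern 9.7% and 43.8%. In the same direction in both there were 74, 2.85% and 8.11%, and 48 without 0.75 g/L replicate 1. The arrays at 0.75 g/L and 2 of the 3 at 5 g/L belonged to session 1, and those at 1 and 1.5 g/L to session 2. For these arrays session thus changed in opposite directions in the 2 comparisons. The remaining array, 5 g/L replicate 3, shared its run with the 1.5 g/L arrays. It differed from the other 5 g/L arrays by medians of -0.01 over the probe sets that rose and -0.02 over those that fell. Over the general stress genes this median was 0.07. Their median signal on replicate 3 lay above that of every 1.5 g/L array, of which the highest was -1.85 relative to 0.75 g/L. Replicate 3 alone was not tested against the 1.5 g/L arrays. With session as a block the 439 fell to 78 and the 74 to 4, and with station and session as blocks to 22 and 0 by limma. Of the general stress genes 21 of 37 were higher at 5 than at 1.5 g/L and 0 lower by limma (1 at an unadjusted p below 0.05), beside 7.15% and 5.19% of all genes, and of the glyoxylate and gluconeogenesis genes 9 of 14 were higher. Of the 63 processome and 65 60S assembly genes 0 passed there in either direction by limma, and at an unadjusted p below 0.05 2 processome genes were lower and 2 60S genes moved each way, and their medians were 0.00 and -0.01. Of the 81 cytosolic ribosomal protein genes 16 were lower there and 0 higher by limma, with a median of -0.40. At an unadjusted p below 0.05 these were 45 and 0.

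**Figure D5:**
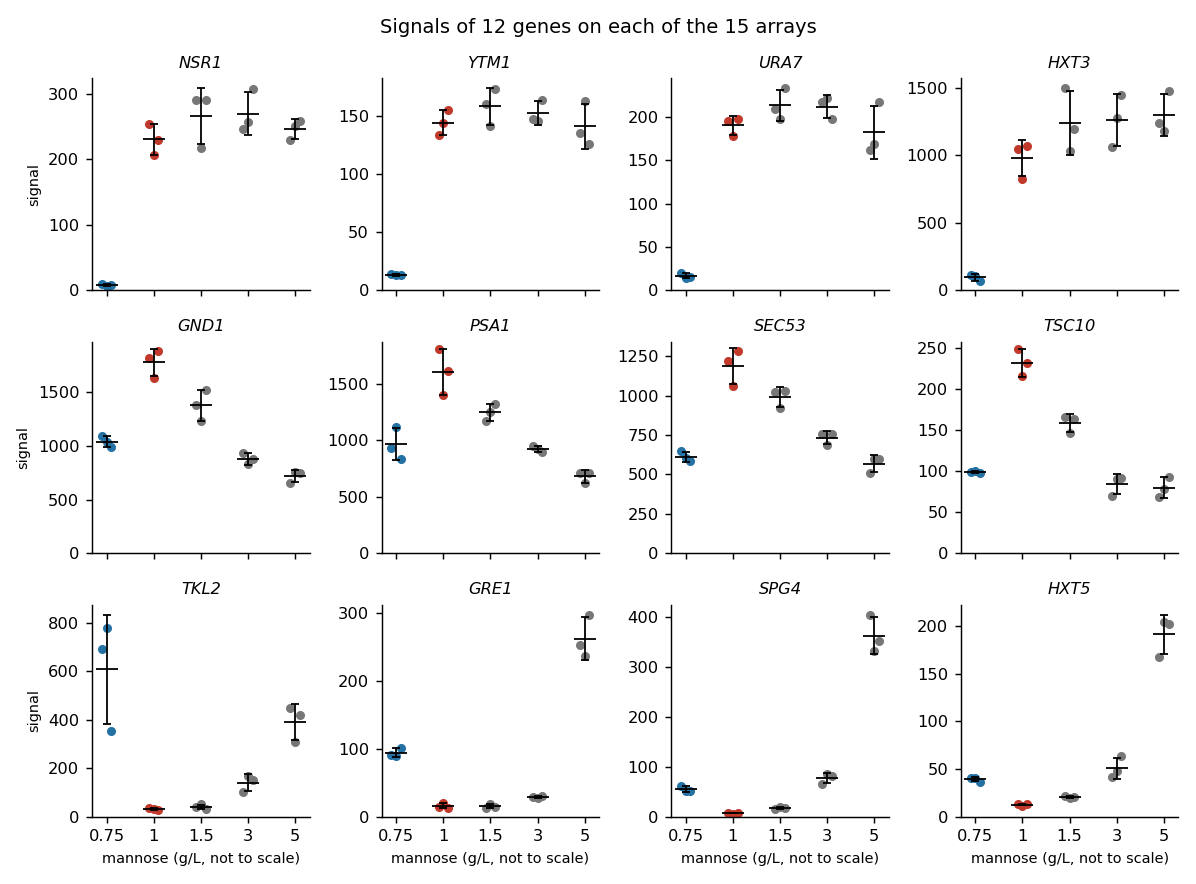
Signals of 12 genes on each of the 15 arrays (y axis, linear, from 0) against initial mannose (x axis, not to scale), with bars for the mean ± SD of 3 arrays. NSR1, YTM1, URA7 and HXT3 stay high from 1 g/L onward, GND1, PSA1, SEC53 and TSC10 peak at 1 g/L, and TKL2, GRE1, SPG4 and HXT5 are lowest at 1 or 1.5 g/L and high again at 5 g/L.

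SPG4, known for survival in stationary phase, was among the genes that fell and came back. Its signals were 62.1, 52.3 and 50.8 at 0.75 g/L, 7.6, 6.3 and 7.6 at 1 g/L, all at background, and 404, 333 and 352 at 5 g/L. It was at least 4.06-fold lower at the first step (adjusted p = 2.38e-08), also called with the 2 blocks, and higher by 4.36 ± 0.16 from 1.5 to 5 g/L (adjusted p = 1.83e-09). GRE1, a hydrophilin induced by water stress, had 91.0, 89.5 and 101 at 0.75 g/L, 14.8, 20.1 and 13.5 at 1 g/L, then 252, 236 and 297 at 5 g/L. It fell by 2.56 ± 0.18 at the first step and rose by 4.11 ± 0.18 from 1.5 to 5 g/L (adjusted p = 1.39e-07 and 9.69e-09). At 5 g/L both genes were above every 0.75 g/L array. HXT5, BAG7 and NQM1 were higher by 3.20 ± 0.16, 4.20 ± 0.33 and 2.62 ± 0.20 at 5 than at 1.5 g/L (adjusted p = 4.22e-08, 2.66e-06 and 2.66e-06). The reverse pattern held SEC53, which fell from 1.5 to 5 g/L by 0.80 ± 0.13, PSA1, by 0.87 ± 0.15, and GND1, by 0.94 ± 0.14 (adjusted p = 0.00161, 0.00178 and 0.000508). SEC53 had signals of 509, 598 and 601 at 5 g/L, around its 0.75 g/L level, and PSA1 713, 618 and 714, below it. TSC10, the reductase of sphingoid base synthesis, had 99.1, 100.3 and 97.2 at 0.75 g/L, 248, 215 and 231 at 1 g/L, then 68.2, 78.5 and 93.2 at 5 g/L. It rose by 1.23 ± 0.16 and then fell by 1.00 ± 0.16 (adjusted p = 2.83e-05 and 0.000865), and its first rise was 0.11 with the 2 blocks. SRL1, a mannoprotein of the wall, rose by 1.10 ± 0.15 and then fell by 0.96 ± 0.15, and CYB5, cytochrome b5 of sterol and lipid synthesis, rose by 1.00 ± 0.14 and then fell by 0.90 ± 0.14 (adjusted p = 5.93e-05 and 0.000996, and 7.72e-05 and 0.000997).

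A smaller group kept its direction. VHT1, the biotin permease, had signals of 50.4, 40.9 and 37.5 at 0.75 g/L, 123, 90.5 and 120.0 at 1 g/L, then 557, 608 and 585 at 5 g/L. It rose by 1.37 ± 0.16 at the first step and by 1.95 ± 0.16 from 1.5 to 5 g/L (adjusted p = 1.56e-05 and 3.54e-06). SUL1 was higher in both, as was YHR020W, the prolyl-tRNA synthetase, with 1.30 ± 0.17 and then 0.86 ± 0.17 (adjusted p = 4.31e-05 and 0.00514), and the peroxin PEX21, with 1.07 ± 0.20 and then 1.46 ± 0.20 (adjusted p = 0.000868 and 0.000358). HXT7 had 1957, 1825 and 1871 at 0.75 g/L, 1025, 746 and 989.7 at 1 g/L, then 237, 211 and 278 at 5 g/L, and fell in the later comparison by 1.21 ± 0.17 (adjusted p = 0.000358). HXT6 fell there by 1.22 ± 0.20 (adjusted p = 0.00118). The wall mannoprotein CWP1 fell by 0.58 ± 0.14 and then by 1.78 ± 0.14 (adjusted p = 0.0056 and 2.66e-06), and YER158C by 0.64 ± 0.15 and then by 1.11 ± 0.15 (adjusted p = 0.00345 and 0.000231).

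The first step was also set against the last in 1 contrast, the change from 0.75 to 1 g/L minus the change from 3 to 5 g/L. It passed for 2018 probe sets (29.0%), 1106 above 0 and 912 below, and for 475 with the 2 blocks. Station and session changed for all arrays at the first step, while most arrays at 3 and 5 g/L shared a run. Of the processome genes 59 of 63 were above 0, and of the 60S assembly genes 61 of 65, with 0 below in either list by limma, also at an unadjusted p below 0.05. Of the 37 general stress genes 32 were below and 1 above. Of all 5219 genes 900 (17.2%) were above and 689 (13.2%) below. The smallest adjusted p above 0 belonged to NSR1 (5.03), YTM1 (3.59), URA7 (3.76) and SRP40 (3.35), with adjusted p of 1.11e-08, 4.64e-08, 9.06e-08 and 1.28e-07. SRP40, a nucleolar chaperone, had signals of 25.8, 29.5 and 21.8 at 0.75 g/L against 179, 212 and 234 at 1 g/L, and rose by 3.02 ± 0.15 (adjusted p = 1.14e-08). Those below 0 were SPG4 (-5.18), GRE1 (-5.74), EGO4 (-4.38) and YNL194C (-5.12), with adjusted p of 1.11e-08, 1.11e-08, 1.11e-08 and 1.42e-08. EGO4 had 1451, 1489 and 1612 and then 198, 213 and 178, and fell by 2.95 ± 0.14 (adjusted p = 9.49e-09). The groups of 3 arrays did not overlap for SRP40 or EGO4, and both kept their call with the 2 blocks.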

How the data were processed

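The authors deposited linear signal intensities for 9335 probe sets of the YG_S98 array on 15 arrays. The computation of a probe set's signal is not described in the labels or files. The authors also deposited experiment records without expression values, another kind of file, which were read for fluidics stations, hybridisation times and messages only. Runs were inferred from station and time of day.

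Here, 60 control probe sets were left out, values below the 10th percentile (1.5, 13754 values) were set to it, signals were log2 transformed, and 6956 probe sets with a mean at or above the 25th percentile were kept. Background, 13.5, is the 95th percentile of 13 control probe sets for sequences not in the sample. The model, limma 3.58.1 (lmFit, eBayes) in R 4.3.3, held all 15 arrays, and p-values were adjusted over the 6956 by Benjamini and Hochberg's method. Errors are standard errors beside log2 changes and standard deviations beside signals. Where a gene lay at or below background on every array of 1 group, its change is given as a bound, the mean of the other group over the background or the gene's own signal, whichever was higher. The fold changes depend on the floor for dim genes.

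Of the probe sets 6504 carry 1 symbol, 328 several and 2443 none, by the platform annotation updated through RefSeq. A gene is its brightest probe set. Of 256 symbols with more than 1 probe set, 1 had probe sets passing in opposite directions. The 47 gene lists name 1528 genes and are described by counts and medians without a test. Named genes are PMI40, PSA1 and SEC53, the 12 largest rises and falls that passed, did not overlap and lay above background, up to 4 members of a list with the smallest adjusted p, 5 for each opposite and 4 for each same direction in 5 against 1.5 g/L, and 4 of each sign for the first against the last step. The lists and the comparisons were chosen with earlier results of these data known. A planned search of promoters for motifs was not run.

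There were 22 alternatives: quantile normalization and median scaling between arrays, changed floors, filters and variance model, the arrays in the fit, blocks for replicate number, fluidics run, session and station, and each of the 6 arrays left out. The last 2 added, station and session together and the fit without the 3 g/L array of the 0.75 g/L run, were chosen after seeing the data. Replicate numbers do not pair the arrays: same-number arrays of the 2 groups deviated with r of 0.14, -0.13 and 0.09 across probe sets, and 3 of 30 such correlations in the series exceeded 0.1.

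On simulated data of the 6956 probe sets with this comparison, the test recovered 14 of 67 genes set to 1.5-fold, 43 of 67 set to 2-fold and 62 of 66 set to 4-fold, with 7.8% false among the calls. The simulation changed only these genes, far fewer than passed in the data, so the recovery may differ there. It held no difference between runs, so the false share does not cover calls due to run. The number of arrays, 3 a group, limits precision.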

Additional observations from a re-analysis of the deposited data

How the results depend on the processing

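The fluidics blocks moved the counts most. The 2597 probe sets passing (1536 higher, 1061 lower), the 439 and 74 passing in opposite and in the same direction at 5 against 1.5 g/L, and the 2018 of the first against the last step became 845 (548, 297), 78 and 4, and 1327 with session as a block, and 1514 (833, 681), 156 and 29 with station as a block. With both blocks they were 121 (45, 76), 22 and 0, and 475, by limma. With the 6 arrays alone in the fit the 439 and 74 became 286 and 31. With replicate number as a block (replicate block) 2504 passed and the 74 became 49. Leaving out each array in turn gave 48 to 61 in the same direction, 337 to 401 in opposite directions and 2167 to 2355 passing. Run as a random block had a correlation of -0.008 and could not separate run from mannose. Of 196 genes named, 156 lost their call without a change of sign with both blocks, 50 with session, 21 with station, 7 under median scaling, 2 under quantile normalization and 2 with the replicate block. KTR6, MEP2 and OST3 also lost theirs with both blocks and turned to -0.93, -0.20 and -0.74, and the cause was not tested. A lost call there could come with a wider error, a smaller change or both. With both blocks ADE17 went from 1.89 ± 0.15 to 1.89 ± 0.44 and AAH1 from 3.39 ± 0.35 to 2.98 ± 1.28. COX26 went from -2.21 ± 0.29 to -0.02 ± 0.84, and it lay below background on every 3 g/L array, among those on which the block effects rest. Of the 47 list medians 15 changed sign with both blocks, 11 under median scaling and 4 under quantile normalization. Genes near the background of 13.5 are known only within bounds.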

Other observations

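In some lists with shares not far from those of all genes (24.9% higher and 15.0% lower), members moved in both directions. Of 25 genes of iron and copper uptake 5 were higher (20.0%) and 6 lower (24.0%) at 1 g/L, with a median of -0.11. FET3 and FTR1, the oxidase and permease of high-affinity iron uptake, had signals of 41.7, 35.0 and 34.1 for FET3 against 163, 133 and 146, and of 46.1, 43.9 and 54.6 for FTR1 against 146, 136 and 156, and rose by 2.00 ± 0.14 and 1.60 ± 0.17 (adjusted p = 1.56e-07 and 5.09e-06). The copper transporters CTR1 and CTR3 had 147, 153 and 175 for CTR1 against 52.7, 79.5 and 36.0, and 96.5, 84.8 and 100.5 for CTR3 against 46.7, 43.1 and 52.9, and fell by 1.57 ± 0.25 and 0.98 ± 0.17 (adjusted p = 0.000234 and 0.000355). The arrays of the 2 concentrations did not overlap for any of these 4 genes, and with station and session as blocks 0 of the 4 passed by limma, with adjusted p of 0.0728 to 0.351. Among 19 phosphate genes 5 were higher (26.3%) and 2 lower (10.5%), near the shares of all genes. Their median of 0.11 was -0.10 under median scaling and -0.04 with the 2 blocks. The low-affinity phosphate transporter PHO90 stood at 1.54 ± 0.25 and PHM8, a phosphatase induced by phosphate starvation, at -2.24 ± 0.20 (adjusted p = 0.000284 and 1.44e-06). Among 19 low-oxygen and heme-regulated genes 2 were higher (10.5%) and 5 lower (26.3%). Their median of 0.01 was -0.08 under quantile normalization and -0.12 with the 2 blocks. The haem synthesis gene HEM13 stood at 0.88 ± 0.22 and the lactate dehydrogenase CYB2 at -1.59 ± 0.25 (adjusted p = 0.00682 and 0.000187).

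Few proteasome genes passed, with 3 of 35 higher and 0 lower by limma, also at an unadjusted p below 0.05. Their median was 0.14, and -0.58 with station and session as blocks, and the largest and smallest changes were 0.65 and -0.28. The subunits RPN10 and PRE4 rose by 0.65 ± 0.14 and 0.63 ± 0.17 (adjusted p = 0.00228 and 0.00988), and PRE4 lost its call without 0.75 g/L replicate 3 (0.0505). Of 16 tested genes of vitamin B6 and thiamine 2 were higher and 2 lower (12.5% each, beside 24.9% and 15.0% of all genes), and the 4 lay near background. THI80, thiamine pyrophosphokinase, was at least 1.05-fold higher (adjusted p = 0.0181), a call lost without 0.75 g/L replicate 1 or 2 or 1 g/L replicate 3 (adjusted p up to 0.0724). Of 34 mating genes 6 were higher and 6 lower at 1 than at 0.75 g/L (17.6% each, beside the same shares of all genes). At 5 against 1.5 g/L 13 were higher and 0 lower by limma (2 at an unadjusted p below 0.05), beside 7.15% and 5.19% of all genes. PRM8, a membrane protein induced by pheromone, had signals of 163, 193 and 161 at 0.75 g/L against 66.1, 65.6 and 55.5 at 1 g/L, fell by 1.47 ± 0.17 and then rose by 0.82 ± 0.17 (adjusted p = 1.05e-05 and 0.00568). FUS3, the MAP kinase of the pheromone response, fell by 0.97 ± 0.23 and then rose by 0.89 ± 0.23 (adjusted p = 0.00476 and 0.0213), and the a-specific gene ASG7 was at least 1.64-fold lower at the first step and higher by 2.08 ± 0.37 at 5 against 1.5 g/L (adjusted p = 5.05e-05 and 0.00263).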
